A study of Mus musculus with 8 samples.

Results

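The Toll-like receptors measured here were 10 genes, Tlr1, Tlr2, Tlr3, Tlr4, Tlr5, Tlr6, Tlr7, Tlr8, Tlr9 and Tlr13, taken by their symbols from the 54752 genes counted. The counts came from right cerebral cortex, taken from 4 sham mice and 4 mice with bilateral carotid artery stenosis (BCAS), 3 weeks after surgery and with 1 mouse per library. All were wild-type C57BL/6 mice by the labels (C57BL/6 J by the methods), and males 14 weeks old by the sample sheet. In BCAS, a microcoil is wound around each common carotid artery, here with a narrower coil on the right, whereas sham mice had the surgery without coils. The cortex analysed lay on the side of the narrower coil, and the groups hold only mice that survived the operation.

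Toll-like receptors are membrane proteins that bind molecules of microbes or of damaged cells and signal through adaptors such as MyD88 and TRIF to NF-kappaB and interferon regulatory factors. Tlr1, Tlr2, Tlr4, Tlr5 and Tlr6 act at the cell surface, where they bind lipoproteins, lipopolysaccharide or flagellin. Tlr3, Tlr7, Tlr8, Tlr9 and Tlr13 act in endosomes, where they meet nucleic acids. In the brain, microglia are the main cells that carry them, and Tlr3 is also known from astrocytes and neurons.

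The receptors do not sit together in the genome. On mm10, Tlr1 (chr5:64924679-64933563) and Tlr6 (chr5:64952031-64960097) are neighbours on the minus strand, and Tlr8 (chrX:167242696-167264329) and Tlr7 (chrX:167304929-167330558) are another pair of neighbours on the minus strand. The others lie apart, with Tlr13 at chrX:106143204-106160493, Tlr2 at chr3:83836272-83841767, Tlr3 at chr8:45395665-45411080, Tlr4 at chr4:66827584-66930284, Tlr5 at chr1:182954788-182976044 and Tlr9 at chr9:106222598-106226883. Read pairs were counted on exons. Tlr3 shared 7.32% of its exon bases with Gm45542 on the opposite strand, and the counting named no strand, so reads from this stretch cannot be told apart. Tlr1 and Tlr6 are close paralogs, and 454 stretches of 50 bases stood in the transcripts of both, 13.6% of those of Tlr1 and 12.3% of those of Tlr6. Their counts are therefore less certain than those of the other 8 receptors, which shared no such stretch with another member.

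RefSeq gave a promoter for 8 of the 10 receptors (GRCm38.p6, 250 bases before and 50 after the start), and Tlr4 and Tlr7 were not among them. Shown are the 250 bases upstream of the receptor with the largest rise in BCAS mice (Tlr2), of a receptor with a small rise (Tlr3), and of the neighbouring partners Tlr1 and Tlr6, which have 2 promoters each, of which 1 is shown. They were read 5′ to 3′ on the minus strand, at chr3:83841609-83841858, chr8:45410381-45410630, chr5:64933559-64933808 and chr5:64959167-64959416 in this order. Capitals mark matches to GGG and CC with any 5 bases between them (a kappaB site, bound by NF-kappaB) in Tlr2 and Tlr3, to GAGGAAGT (a PU.1 site) in Tlr1 and to GAAA repeated after any 2 bases (an interferon response element) in Tlr6, on either strand.
Tlr2: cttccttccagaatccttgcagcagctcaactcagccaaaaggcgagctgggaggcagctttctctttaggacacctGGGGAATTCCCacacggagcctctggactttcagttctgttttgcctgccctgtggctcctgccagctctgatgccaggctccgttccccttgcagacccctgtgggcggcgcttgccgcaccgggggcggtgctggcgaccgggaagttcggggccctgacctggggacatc
Tlr3: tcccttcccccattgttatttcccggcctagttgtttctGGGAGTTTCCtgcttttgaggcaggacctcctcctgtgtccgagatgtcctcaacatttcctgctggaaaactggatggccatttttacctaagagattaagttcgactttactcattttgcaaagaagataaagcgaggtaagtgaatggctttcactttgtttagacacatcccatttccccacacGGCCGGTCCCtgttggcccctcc
Tlr1: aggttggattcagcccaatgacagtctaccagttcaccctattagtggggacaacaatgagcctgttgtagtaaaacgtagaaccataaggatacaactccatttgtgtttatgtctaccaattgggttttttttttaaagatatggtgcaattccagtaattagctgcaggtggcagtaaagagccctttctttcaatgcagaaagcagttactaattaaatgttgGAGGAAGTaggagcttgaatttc
Tlr6: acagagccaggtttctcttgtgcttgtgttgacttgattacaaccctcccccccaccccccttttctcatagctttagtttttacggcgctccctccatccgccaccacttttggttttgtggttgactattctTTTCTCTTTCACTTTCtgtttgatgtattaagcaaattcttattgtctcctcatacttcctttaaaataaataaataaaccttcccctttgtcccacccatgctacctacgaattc

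Among the 10 promoters of the 8 receptors, a kappaB match stood in 4, an interferon response element in 1, a gamma activated site (TTCNNNGAA) in 3 and a PU.1 match in 2. The promoter of Tlr1 not shown held 1 gamma activated site, and that of Tlr6 not shown held 2 and a kappaB match too. Among 32851 RefSeq promoters of the same 300 bases, 50.8%, 3.44%, 8.30% and 3.20% held these motifs. The kappaB match stood in both Tlr2 and Tlr3, the receptors with the largest and the smallest log2 fold change between the groups. A match describes letters and is no evidence of binding.

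The libraries held 16759364 to 21794435 counts, and a count of 3 in the smallest was worth 0.179 CPM (counts per 1000000). Levels are TMM-normalized CPM, given as mean ± SD over 4 mice, and a gene was called where its absolute log2 fold change was above 1 and its edgeR quasi-likelihood p, adjusted by Benjamini-Hochberg over 17136 tested genes, was under 0.05. The tissue label was checked against markers, and the 5 cortical neuron markers were present in all libraries, at summed levels of 1905 to 2138 CPM in sham mice and 595 to 1635 CPM in BCAS mice. Of 6 striatal and choroid plexus markers none was called, but 2 libraries stood apart in them. Sham mouse 3 held 695 CPM of the choroid plexus gene Ttr against 7.71 to 34.1 CPM in the other sham mice, and BCAS mouse 4 was highest in the striatal genes Ppp1r1b (248 CPM), Drd1 (49.5 CPM) and Drd2 (27.1 CPM). All 10 receptors were called without sham mouse 3, and 9 without BCAS mouse 4, where Tlr5 was lost. Markers of myeloid cells moved with the groups. All 12 pan-myeloid markers were called higher, beside 11.0% of all tested genes, with summed levels of 360 to 433 CPM in sham mice and 2129 to 9037 CPM in BCAS mice. So were 10 of 10 homeostatic microglia markers, at 263 to 319 CPM and 1091 to 3984 CPM. Of 13 blood leukocyte markers, 4 had enough counts to be tested, all through the BCAS libraries alone, and were called higher. The sum of all 13 was 1.93 to 2.93 CPM in sham mice and 24.0 to 172 CPM in BCAS mice. Itgax alone held 72.2, 18.2, 61.7 and 57.6 CPM of it in BCAS mice 1 to 4. The neutrophil marker Ly6g was at 0 in every library, whereas S100a8 and S100a9 had at most 6 counts in a sham mouse. In BCAS mice S100a8 had 5 to 69 counts and S100a9 had 7 to 98. In bulk tissue, more cells of a type and more RNA per cell cannot be told apart.

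All 10 receptors were higher in BCAS mice, with log2 fold changes from 1.06 (Tlr3 and Tlr5) to 5.48 (Tlr2) and a median of 3.53. In the same test, 11.0% of all tested genes were called higher (19.2% without the fold threshold), and the median log2 fold change of all tested genes was -0.01. In 9 receptors every BCAS mouse lay above every sham mouse, which held for 18.5% of all tested genes, and Tlr8 was the exception. Tlr1, Tlr5, Tlr6 and Tlr8 reached the minimum count in fewer than 4 sham libraries and so entered the test through the BCAS libraries, whereas the other 6 passed it on the sham libraries alone and were called as well. The 5 surface receptors had a median log2 fold change of 3.24 and the 5 endosomal receptors a median of 3.82, with ranges of 1.06 to 5.48 and of 1.06 to 4.41.

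**Figure D1:**
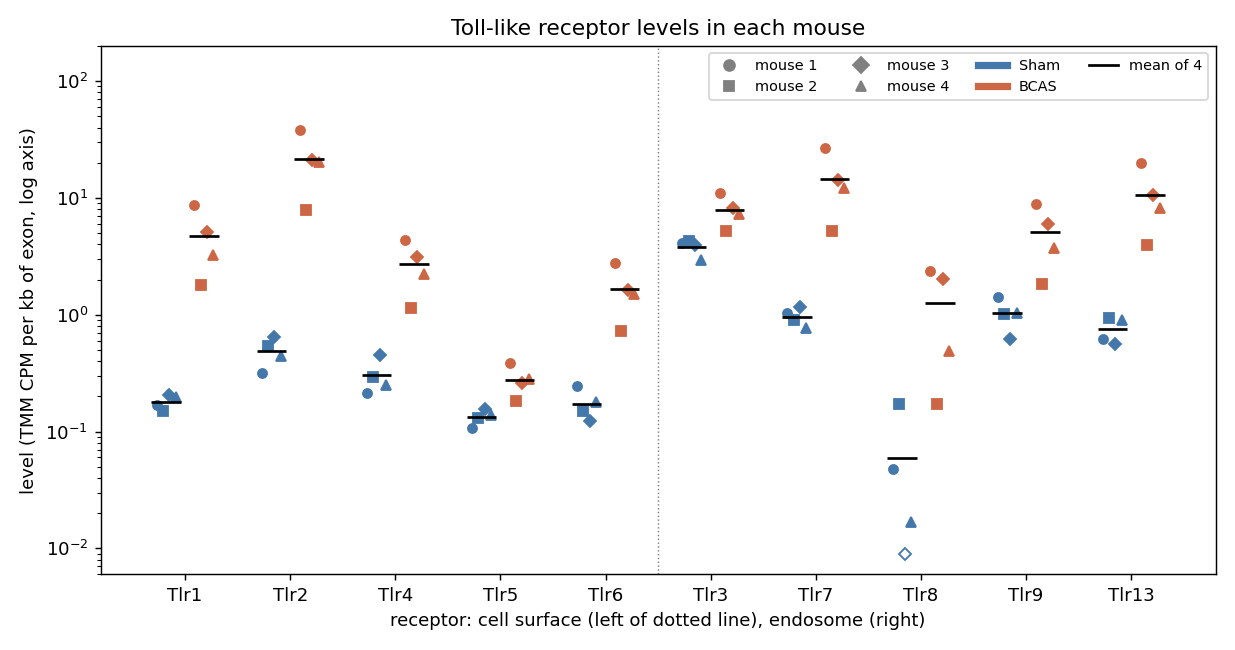
Level of each Toll-like receptor in each mouse, in TMM-normalized CPM per kb of exon on a log axis, with sham mice in blue, BCAS mice in orange, a symbol for each mouse number and a bar at the mean of 4. The open symbol at the foot of the plot stands for the sham mouse with 0 counts of Tlr8, the only receptor in which the groups overlapped.

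Tlr2, which pairs with Tlr1 or Tlr6 to bind bacterial lipoproteins, rose most. Mouse by mouse (1 to 4 in each group), 17, 26, 34 and 22 counts in the sham cortex stood against 2596, 466, 1172 and 1117 after BCAS. Even the lowest BCAS level was 12.3 times the highest sham level, the widest gap between the groups among the 10 receptors. The log2 fold change was 5.48 ± 0.50 (SE; edgeR, adjusted p = 0.00146), the 54th largest of all tested genes.

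The partners of Tlr2 had few counts in sham mice. Tlr1, which serves the receptor for triacylated lipoproteins, had 10, 8, 12 and 11 counts in sham mice against 662, 116, 315 and 199 after BCAS, and rose from 0.603 ± 0.0867 to 15.7 ± 9.97 CPM (log2 fold change 4.69 ± 0.52 SE, edgeR adjusted p = 0.00163). Tlr6, which serves the receptor for diacylated lipoproteins, had 16, 9, 8 and 11 counts in sham mice against 234, 53, 113 and 104 after BCAS, and rose from 0.647 ± 0.193 to 6.18 ± 3.10 CPM (log2 fold change 3.24 ± 0.43 SE, edgeR adjusted p = 0.00240). In sham mice the levels per kb of the pair overlapped, whereas Tlr1 lay above Tlr6 in each BCAS mouse.

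Tlr4, the receptor for lipopolysaccharide, had 21, 26, 44 and 23 counts in sham mice against 555, 124, 319 and 230 after BCAS. The groups were apart, with means of 1.68 ± 0.584 and 15.1 ± 7.59 CPM and a log2 fold change of 3.17 ± 0.43 (SE; edgeR, adjusted p = 0.00252). Tlr5, the flagellin receptor, had 9, 10, 13 and 11 counts in sham mice against only 42, 17, 23 and 25 after BCAS. Its groups were barely apart, the lowest BCAS level being 1.18 times the highest sham level, and the log2 fold change was 1.06 ± 0.30 (SE; edgeR, adjusted p = 0.0287). This call was lost without sham mouse 1, 2 or 4, at adjusted p-values from edgeR of 0.0831, 0.0748 and 0.0698, and without BCAS mouse 1, 3 or 4, at 0.0808, 0.0606 and 0.0648.

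Among the endosomal receptors, Tlr7 and Tlr13 rose by similar amounts. Tlr7, a receptor for single-stranded RNA, had 74, 59, 83 and 52 counts in sham mice against 2468, 414, 1071 and 919 after BCAS, with means of 3.94 ± 0.690 and 59.3 ± 36.2 CPM (log2 fold change 3.91 ± 0.46 SE, edgeR adjusted p = 0.00185). Tlr13, a rodent receptor for bacterial ribosomal RNA, had 47, 65, 42 and 65 counts in sham mice against 1963, 332, 841 and 643 after BCAS (log2 fold change 3.82 ± 0.48 SE, edgeR adjusted p = 0.00205). The lowest BCAS mouse was 4.49 and 4.22 times the highest sham mouse in these genes.

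Tlr9, the receptor for unmethylated CpG DNA, had 87, 57, 38 and 60 counts in sham mice against 709, 125, 386 and 238 after BCAS. It varied more between sham mice than Tlr7 did, and BCAS mouse 2 lay only 1.30 times above the highest sham mouse. The means were 3.57 ± 1.13 and 17.8 ± 10.6 CPM, with a log2 fold change of 2.32 ± 0.46 (SE; edgeR, adjusted p = 0.00870). Tlr3, the receptor for double-stranded RNA, was already well expressed in sham mice, with 376, 359, 357 and 255 counts, and reached 1313, 528, 791 and 692 after BCAS. Its level rose from 19.9 ± 3.11 to 41.3 ± 12.7 CPM, with a log2 fold change of 1.06 ± 0.22 (SE; edgeR, adjusted p = 0.0100). That fold stood close to the threshold of 1 and fell to 0.86 without BCAS mouse 1 and to 0.94 without sham mouse 4, although the adjusted p from edgeR stayed at 0.00817 and 0.0359.

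Tlr8, a further receptor for single-stranded RNA and the neighbour of Tlr7, had the fewest counts of the 10 receptors summed over sham mice, with 3, 10, 0 and 1 against 195, 12, 135 and 32 after BCAS. BCAS mouse 2, at 0.617 CPM, lay just below sham mouse 2, at 0.623 CPM, and the other 3 BCAS mice lay above all sham mice. The log2 fold change of 4.41 ± 1.05 (SE; edgeR, adjusted p = 0.0163) rests on low sham counts, of which sham mouse 2 holds 10 of 14. It rose to 5.76 without sham mouse 2, which moved the fold by more than 1.5 times, and the call was lost without sham mouse 1 or 4 (adjusted p = 0.0548 and 0.0533 from edgeR).

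The BCAS mice kept nearly the same order in all members. BCAS mouse 1 was highest and BCAS mouse 2 lowest in 10 of 10 receptors, and the full order of mice 1, 3, 4 and 2 held in 9, with Tlr5 as the exception. The order was not particular to the receptors, since 89.8% of all genes called higher had BCAS mouse 1 highest, 93.8% had BCAS mouse 2 lowest and 69.3% had the full order. The summed pan-myeloid markers followed it too, at 9037, 2129, 4847 and 4380 CPM in BCAS mice 1 to 4. The summed homeostatic microglia markers did not, at 3984, 1091, 1891 and 2105 CPM, where mouse 4 lay above mouse 3. Mouse 1 exceeded mouse 2 by 2.11 times in Tlr5, 2.12 times in Tlr3, 3.77 to 5.09 times in the other receptors apart from Tlr8, and 13.9 times in Tlr8.

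The order of the receptors by level, in CPM per kb of exon, was different in the groups. In sham mice Tlr3 led at 3.81 ± 0.596 and its range lay above that of every other receptor. Tlr9 (1.03), Tlr7 (0.964), Tlr13 (0.757), Tlr2 (0.485) and Tlr4 (0.302) followed, with ranges that overlapped from each to the next. The range of Tlr4 lay above that of Tlr1 (0.180), but overlapped that of Tlr6 (0.174). Tlr1, Tlr6, Tlr5 (0.132) and Tlr8 (0.0595) again overlapped from each to the next. In BCAS mice Tlr2 led at 21.7 ± 12.3, ahead of Tlr7 (14.5), Tlr13 (10.7), Tlr3 (7.92), Tlr9 (5.12), Tlr1 (4.69), Tlr4 (2.72), Tlr6 (1.66), Tlr8 (1.27) and Tlr5 (0.277). Every neighbour in that order overlapped the next over the 4 mice, whose overall levels differed. Within each mouse, 6 of the 9 neighbouring pairs kept their order in all 4 BCAS mice, and those of Tlr13 and Tlr3, Tlr6 and Tlr8, and Tlr8 and Tlr5 were turned in 1 mouse each. In sham mice, 3 of the 9 pairs kept their order in all 4.

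**Figure D2:**
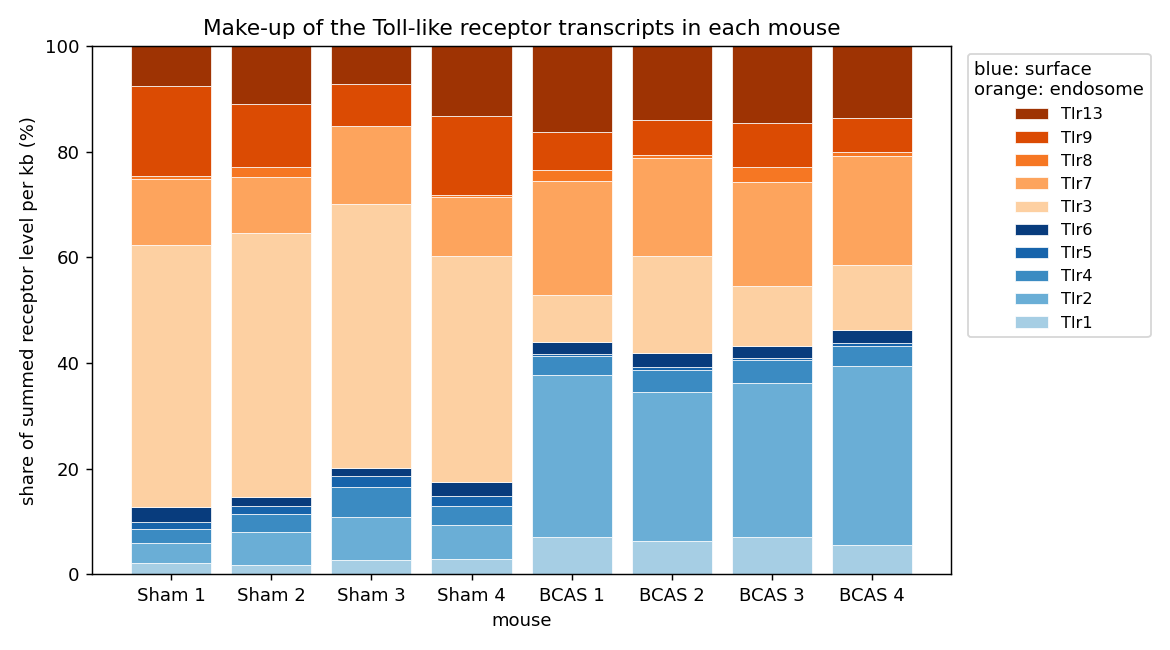
Share of each Toll-like receptor in the summed level of the 10 receptors, in percent of CPM per kb of exon, for each sham and each BCAS mouse. Tlr3 made up 48.1% of the sum on average in sham mice and 12.8% in BCAS mice, while Tlr2 went from 6.18% to 30.5%.

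As a share of the summed level of the 10 receptors, Tlr3 fell from 48.1% ± 3.51 in sham mice to 12.8% ± 4.04 in BCAS mice (SD, n = 4), although its own level was higher. Tlr2 went from 6.18% ± 1.78 to 30.5% ± 2.56, and Tlr7 from 12.2% ± 1.91 to 20.1% ± 1.33. The shares of Tlr4 (3.85% ± 1.36 and 3.93% ± 0.321) and Tlr6 (2.21% ± 0.660 and 2.42% ± 0.186) overlapped between the groups. The surface receptors together made up 16.3% ± 3.24 in sham mice and 43.8% ± 1.89 in BCAS mice, with sham values from 12.8% to 20.1% and BCAS values from 41.8% to 46.3%, which did not overlap. In the BCAS mice the sum itself ran from 28.2 to 123 CPM per kb.

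The summed level rose from 7.89 to 70.6 CPM per kb over all 10 receptors, 24.4 times for the surface group and 5.97 times for the endosomal group. Both folds moved when 1 member was left out. Without Tlr3 the endosomal sum rose 11.3 times, and without Tlr2 the surface sum rose 11.9 times. The median log2 fold changes, 3.24 at the surface and 3.82 in endosomes, stood in the other order, and the difference between the sites was not tested. The order of the medians turned with at least 10 counts in every library (4.34 and 3.09 over the receptors left), with thinned counts (3.34 and 3.06, with 4 endosomal receptors because Tlr8 was not tested) and with limma on log2(CPM + 1) (2.48 and 1.88).

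Within pairs of related receptors, 3 of 4 log2 ratios differed between the groups. The ratio of Tlr2 to Tlr4 was -0.28, 0.00, -0.35 and -0.06 in sham mice against 2.22, 1.89, 1.87 and 2.27 after BCAS, a difference of 2.24 (exact two-sided permutation test, p = 0.0286, adjusted over 4 ratios 0.0381). The ratio of Tlr1 to Tlr6 differed by 1.30 and that of Tlr3 to Tlr7 by -2.66, at the same p and adjusted p from exact permutation tests. These groups did not overlap, and 0.0286 is the smallest p that 70 arrangements of the libraries can give. The ratio of Tlr1 to Tlr6 rests in sham mice on 8 to 12 counts of Tlr1 and 8 to 16 of Tlr6. The 2 genes also share stretches of sequence, so their ratio is less certain. The ratio of Tlr7 to Tlr8 differed by only 0.05, while sham mice had an SD of 1.28 (exact permutation test, p = 0.9714). No difference was detected, and at the depth of Tlr8 one within that spread would be missed.

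**Figure D3:**
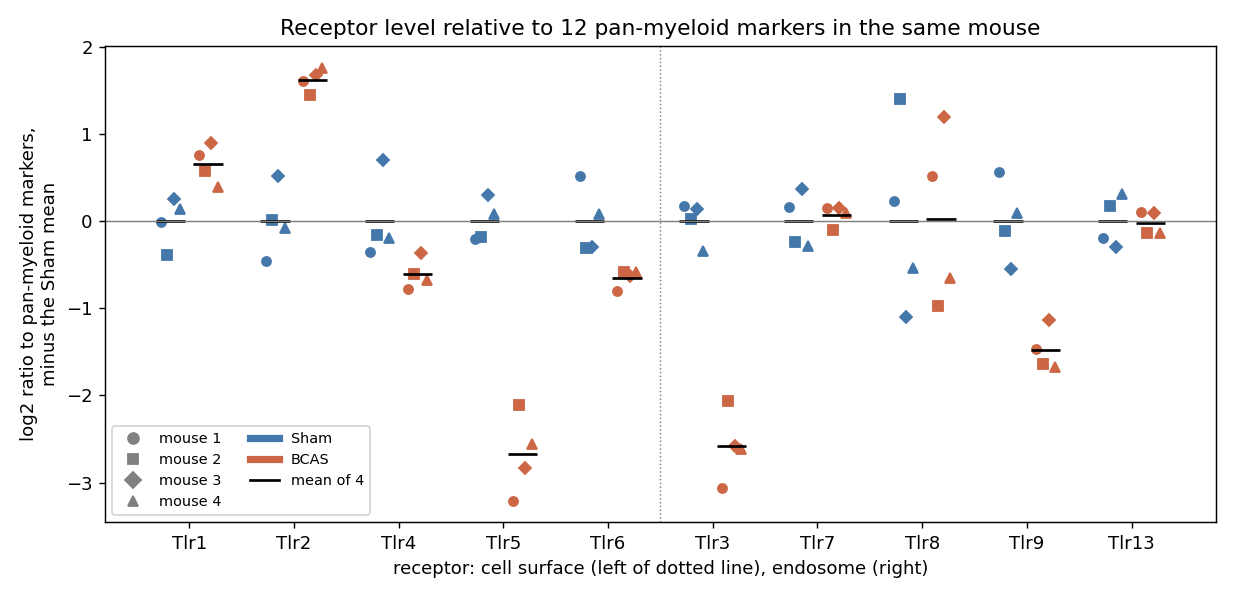
Level of each receptor minus the mean of the 12 pan-myeloid markers in the same mouse, on the log2 scale, with the sham mean set to 0, sham mice in blue, BCAS mice in orange, a symbol for each mouse number and a bar at the mean of 4. Tlr7, Tlr8 and Tlr13 overlap between the groups, Tlr1 and Tlr2 lie higher in BCAS mice, and the other 5 lie lower.

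The receptors were next set against the 12 pan-myeloid markers, which include Aif1, Csf1r and Tyrobp. The mean log2 level of these markers was 4.61, 2.52, 3.70 and 3.55 above the sham mean in BCAS mice 1 to 4. For Tlr7 and Tlr13 the groups overlapped on this scale, from -2.56 to -1.91 in sham and -2.38 to -2.12 in BCAS mice for Tlr7, with differences of 0.07 and -0.02 (adjusted p = 0.9524 each, exact permutation tests). Tlr8 differed by 0.02 with a wide spread (SD 1.08 in sham mice). Tlr2 rose by 1.63 and Tlr1 by 0.66 beyond the markers. Tlr4 (-0.61), Tlr6 (-0.65), Tlr9 (-1.48), Tlr3 (-2.58) and Tlr5 (-2.68) lagged behind them. In these 7 receptors the groups did not overlap (exact two-sided permutation tests, p = 0.0286, adjusted over 10 receptors 0.0408). The call of Tlr4 was lost with a prior count of 0.5 (-0.56, adjusted p = 0.0816 from an exact permutation test).

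The outcome depended on the marker list. Against 10 homeostatic microglia markers such as P2ry12 and Tmem119, which rose less, Tlr2 (2.83), Tlr1 (1.86), Tlr7 (1.28) and Tlr13 (1.19) rose beyond the markers and Tlr3 (-1.38) and Tlr5 (-1.47) lagged behind (adjusted p = 0.0476 each, exact permutation tests). Tlr4 and Tlr6 changed sign, to 0.59 and 0.56, with adjusted p-values of 0.1429 and 0.0816, Tlr9 was at -0.27 (0.40) and Tlr8 at 1.23 (0.1905), all from exact permutation tests. Under both lists Tlr1 and Tlr2 gained on the markers and Tlr3 and Tlr5 lost. Blood leukocyte and border macrophage markers also moved with the groups, the latter with sums of 16.6 to 20.5 CPM in sham mice and 30.5 to 90.7 CPM in BCAS mice and 4 of 6 called higher, beside 11.0% of all tested genes. Of these 4, Cbr2 entered the test through the BCAS libraries, and the call of Lyve1 was lost when 1 library was left out, except for BCAS mouse 2 or 4 (log2 fold changes of 0.85 to 1.43, adjusted p = 0.0690 to 0.113 from edgeR). Their part in the receptor levels was not tested. Of the 6 astrocyte markers, Gfap and Aqp4 were called higher, with log2 fold changes of 3.90 and 1.65. The other 4 stood at 0.02 to 0.61 and were not called, although 5 of the 6 passed the adjusted p. The 6 neuron markers had a median of -0.81, and Snap25 (-1.07) was called lower, beside 1.28% of all tested genes, a call that was lost without sham mouse 1 or 4 or BCAS mouse 1 or 4. The part of either cell type in the level of Tlr3 was not tested.

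Some genes outside the list belong to the same family. Tlr12, an endosomal receptor for profilin, had 21, 20, 6 and 9 counts in sham mice against 151, 68, 95 and 62 after BCAS, with no overlap between the groups and, entering the test through the BCAS libraries, a log2 fold change of 2.48 ± 0.42 (SE; edgeR, adjusted p = 0.00490). Cd180, a relative of Tlr4 without a signaling domain, had 65, 66, 42 and 63 counts in sham mice against 4537, 822, 1824 and 1624 after BCAS. Its log2 fold change of 4.94 ± 0.48 (SE; edgeR, adjusted p = 0.00146) exceeded that of every receptor but Tlr2, and 4.04% of its exon bases are shared with Mast4 on the opposite strand. Tlr11 had 0, 0, 0 and 3 counts in sham mice against 13, 0, 7 and 3 after BCAS, too few to be tested.

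Most genes that help the receptors bind ligands or reach the endosome rose as well. Of 14 coreceptor and trafficking genes, 11 were called higher and none lower, with a median log2 fold change of 2.55, against the 11.0% of all tested genes that were called higher. Of the 11, Lbp and Cd36 overlapped between the groups and lost their calls without sham mouse 1, 2 or 4 or BCAS mouse 3, and Cd36 also without BCAS mouse 1 (adjusted p = 0.0553 to 0.0846 from edgeR). Cd14, which hands lipopolysaccharide to Tlr4, rose by 3.63 on the log2 scale and Ly96, the subunit that binds it and that entered the test through the BCAS libraries, by 2.52. Ly86, the partner of Cd180, rose by 4.56, with 134, 121, 133 and 103 counts in sham mice against 7115, 1343, 2920 and 2624 after BCAS. Unc93b1, which escorts the nucleic acid receptors to endosomes, rose by 3.16, the endosomal histidine transporter Slc15a3, which shares 28.1% of its exon bases with Tmem132a, by 5.08, and the protease Ctss, which cleaves these receptors and is also among the pan-myeloid markers, by 4.28. The chaperones of receptor folding were not called, with log2 fold changes of 0.41 for Hsp90b1 (adjusted p = 0.0990) and 0.13 for Cnpy3 (adjusted p = 0.338, both from edgeR).

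In the signaling chain below the receptors, the adaptors Myd88, Tirap, Ticam1 and Ticam2 rose, and most other genes were not called. Of 18 adaptor and kinase genes, 6 were called higher and none lower, where 11.0% of all tested genes were called higher, and the median log2 fold change was 0.42. These 4 adaptors were all among the 6, with Ticam2, the bridge from Tlr4 to TRIF, at 3.90, Myd88 at 1.71, Tirap at 1.31 and Ticam1, which encodes TRIF, at 1.21. The groups overlapped in Tirap, whose call was lost without BCAS mouse 3 or sham mouse 4 (adjusted p = 0.0511 and 0.0556 from edgeR), and the fold of Ticam1 fell to 1.00 on the log2 scale, no longer above the threshold, without BCAS mouse 1. Ticam2, with 1, 7, 8 and 3 counts in sham mice, entered the test only through the BCAS libraries. Tmed7 covers 21.3% of the exon bases of Ticam2, and Acaa1a covers 11.3% of those of Myd88. The kinases Ikbke (2.73) and Irak4 (2.27) were the others. Of the 12 not called, 5 passed the adjusted p but not the fold threshold, among them Irak2 (0.84), Tab2 (0.65), Traf6 (0.40) and Irak1 (0.39). The smallest log2 fold changes were -0.08 for Tab1 and -0.22 for Tab3, neither past the adjusted p.

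**Figure D4:**
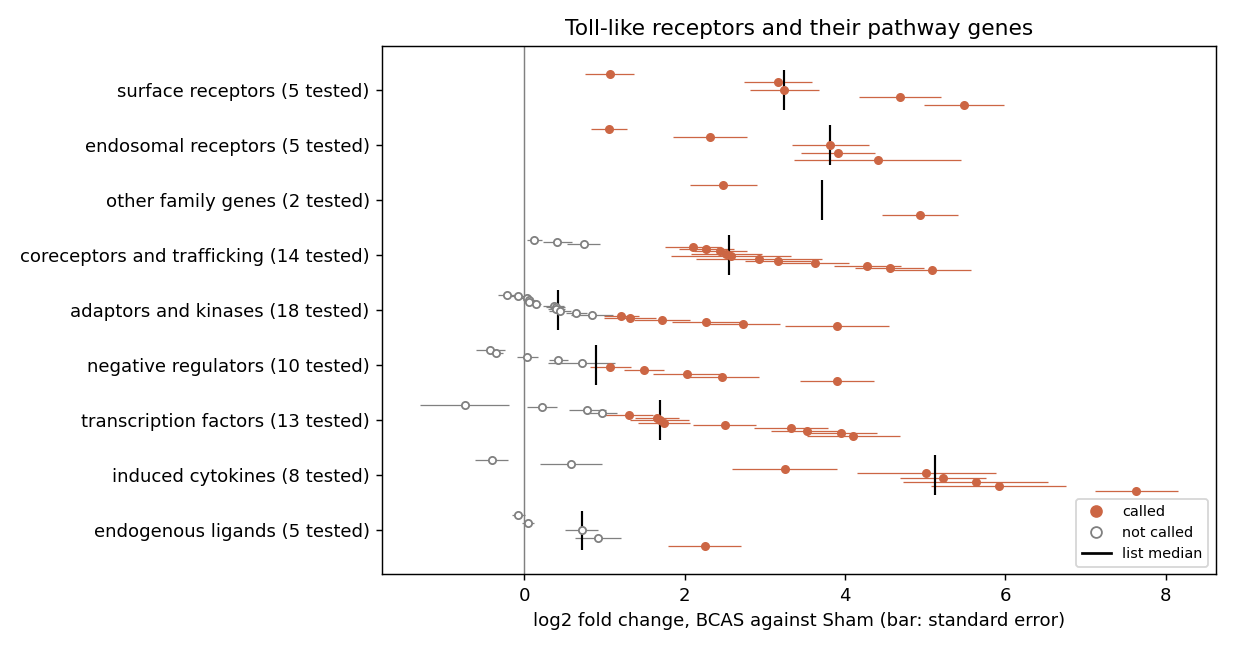
Log2 fold change, BCAS over sham, of each tested gene in the lists of the Toll-like receptor pathway, with filled points for called genes, open points for others, horizontal bars for the standard error and an upright bar at the median of each list. Receptors and coreceptors sit mostly above 2, whereas 12 of the 18 adaptors and kinases were not called, and the points of Ccl2 and Ccl3 rest on at most 3 counts in any sham mouse. All 6 called induced cytokines entered the test only through the BCAS libraries, so the median of that list is no measure of it.

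Of 10 negative regulators, 5 were called higher and none lower, again against 11.0% of all tested genes, with a median of 0.89. Among the 5, Nfkbia overlapped between the groups. Its fold fell to 0.95 and 0.92 on the log2 scale without BCAS mouse 1 or 3, and its call was also lost without sham mouse 1 (adjusted p = 0.0548 from edgeR). Pik3ap1, an adaptor that restrains receptor signaling through PI3K, rose by 3.90, Il1rl1, a receptor that can sequester the adaptors and that entered the test through the BCAS libraries, by 2.47 and the inactive kinase Irak3 by 2.02. Tollip (-0.35, adjusted p = 0.0203) and Sarm1 (-0.43, adjusted p = 0.0965, both from edgeR) were not called, the former being past the adjusted p but not the fold threshold. Of 13 transcription factors, 9 were called higher and none lower, beside the same 11.0%, with a median of 1.69. Irf7 (4.10), which drives interferon genes, Irf8 (3.96) and Spi1 (3.52), which encodes the myeloid factor PU.1, rose most, while Jun (0.22) and Fos (-0.75), immediate early genes also used by neurons, were not called.

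Of 14 cytokine and enzyme genes that receptor signaling is known to induce, 8 had enough counts to be tested and 6 were called higher. All 6 entered the test only through the BCAS libraries, so neither their number nor their fold changes nor the list median are a measure of the list. Among the 8 tested genes, chemokines had the largest fold changes. Ccl3 had 2, 2, 0 and 2 counts in sham mice against 664, 204, 319 and 349 after BCAS, Ccl4 had 8, 0, 0 and 0 and then 281, 70, 130 and 129, and Ccl2 had 0, 1, 3 and 1 and then 168, 16, 100 and 42. No BCAS mouse overlapped the sham mice in these genes. The median log2 fold change of the 8 tested genes was 5.12, or 4.80 with Ccl2 and Ccl3 set against a level of 3 counts in each sham library. It was 4.39 without sham mouse 2, where 10 genes were tested. With at least 10 counts in every library, 1 gene was left, at -0.39. Nos2 (0.58) and Ptgs2 (-0.41) were not called. Tnf had 142, 5, 44 and 26 counts in BCAS mice and at most 3 in a sham mouse, Il6 had at most 9 counts in any library, and these genes were not tested. Ifnb1 had 0 counts in all 8 libraries, so no change of it was detected. A count of 0 allows up to 0.179 CPM in the smallest library, and a change below that level would be missed.

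Of 9 genes for endogenous ligands, 5 were tested and only Bgn was called higher, with a log2 fold change of 2.25, beside 11.0% of all tested genes called higher. Bgn encodes biglycan, a matrix proteoglycan that Tlr2 and Tlr4 can bind, and had 343, 376, 340 and 425 counts in sham mice against 4051, 584, 2461 and 1419 after BCAS. The matrix genes Tnc (0.92) and Vcan (0.71), the nuclear protein gene Hmgb1 (0.04) and the chaperone gene Hspd1 (-0.07) were not called. S100a8 and S100a9, which are also leukocyte markers, had at most 6 counts in a sham mouse and 5 to 98 in a BCAS mouse. Saa3, a serum amyloid A gene that was not tested, had 0 counts in every sham mouse and 167, 2, 254 and 67 after BCAS. Without BCAS mouse 2 or sham mouse 3, 4 ligand genes were called higher, and without sham mouse 1 or BCAS mouse 4, 2 were.

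The genes whose pattern lay nearest to a receptor were sought for Tlr2, Tlr4 and Tlr7 among 12431 genes whose mean count was at least 100, by the root-mean-square difference of log2 levels, each relative to its sham mean, over the 8 libraries. Nearest to Tlr2 were the interferon-inducible Ifi204 (0.353), the leukocyte surface gene Cd52 (0.358) and Mpeg1, a macrophage perforin (0.394). Nearest to Tlr4 were the transporter Slc37a2 (0.195) and the protease Ctsc (0.205), and nearest to Tlr7 were the kinase Btk (0.151), the NADPH oxidase subunit Ncf4 (0.179) and the chemokine Ccl9 (0.184). The median distance of all candidate genes was 3.77, 2.22 and 2.70. Among the receptors themselves, Tlr7 and Tlr13 lay 0.381 apart and Tlr3 and Tlr5 0.240, whereas Tlr2 and Tlr5 lay 3.06 apart.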

How the data were processed

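RNA-seq was analysed from the right cortex of 4 sham and 4 BCAS mice, grouped by the labels. Reads had been trimmed (Trim Galore) and aligned to mm10 (HISAT2), and the authors deposited raw featureCounts counts per gene, not normalized. Headers give featureCounts 2.0.1 with GENCODE vM20, but the methods give version 1.6.3 with RefSeq genes. No strand option was given. Symbols were joined by gene ID, which gave a symbol for 54723 of 54752 IDs.

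Counts were tested with edgeR 4.0.16 (R 4.3.3) after filterByExpr (minimum count 10, minimum total 15) and TMM normalization, without covariates. The study used limma, which served here as an alternative (limma 3.58.1) beside DESeq2 1.42.0. Standard errors are the log2 fold change over the root of its F-statistic. Single values, on log2 CPM with a prior count of 2, were tested by exact two-sided permutation of the 8 libraries (70 arrangements, scipy 1.17.1). The procedure was tested on simulated data. Floors (3 counts) cover counting error only, whereas the standard errors include the estimated spread between mice. Levels were ranked and summed per kb of exon, whereas ratios of receptors to each other or to markers used CPM without length.

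The members, lists, rules and tests were chosen with earlier results of these data known. Named were all 10 receptors, Tlr11, Tlr12 and Cd180, from each other list the 3 largest and 2 smallest fold changes among tested genes (of the marker lists, only those a result turns on), and the 3 genes nearest to Tlr2, Tlr4 and Tlr7, of which 1 is not reported here. Other genes, among them Ttr, Ppp1r1b, Drd1, Drd2, Cbr2, Lyve1, Snap25, Itgax, Lbp, Cd36, Cd14, Ly96, Unc93b1, Myd88, Tirap, Ticam1, Irak1, Irak2, Traf6, Tab2, Nfkbia, Tnf, Il6, Ifnb1, Saa3, S100a8 and S100a9, were chosen after their values were seen. Alternatives changed the normalization, filter, test, depth, prior count, fold threshold and marker list, used the replicate number as a block or left out each library. The sums without Tlr3 or Tlr2 were added after the data were seen. Figures were drawn with matplotlib 3.10.9.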

Additional observations from a re-analysis of the deposited data

How the results depend on the processing

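Tlr1, Tlr2, Tlr4, Tlr6, Tlr7 and Tlr13 were called higher under every alternative in which they were tested. With at least 10 counts in every library, only 6 receptors were tested and 6 were called, 2 of them surface receptors with a median log2 fold change of 4.34, while the induced cytokines had 0 genes higher and a median of -0.39 over the single gene left. Without a filter, Tlr5 was not called (edgeR, adjusted p = 0.0779), 10 induced cytokines and 4 endogenous ligands were higher, and more genes were tested. Tests against a log2 fold change of 1 called 6 receptors, without Tlr3, Tlr5, Tlr8 and Tlr9, and 744 genes in all against 2097, or 5490 with no fold threshold. Limma on log2(CPM + 1) gave Tlr5 0.50 and Tlr3 0.98, below the threshold, an endosomal median of 1.88 and an induced cytokine median of 2.33. With the library size alone, 2 endogenous ligands were higher. Leaving out 1 library called 7 to 10 receptors, 3 to 5 of them endosomal, with 7 and 3 without sham mouse 4, and gave 1 to 4 endogenous ligands higher with medians of 0.49 to 1.78.

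With a prior count of 0.5, the ratio of Tlr7 to Tlr8 differed by -0.76 and Tlr13 relative to the pan-myeloid markers by 0.0052, both changes of sign within the spread, and Tlr4 by -0.56 (exact permutation test, adjusted p = 0.0816). With thinned counts Tlr8 stood at -0.062. With homeostatic markers the values were 0.59 for Tlr4, 0.56 for Tlr6, 1.19 for Tlr13, 1.28 for Tlr7, -0.27 for Tlr9 and 1.23 for Tlr8. For the ratios, the smallest p of the paired test is 0.125, above the threshold, and values without 1 library were given no test. The cause of these shifts was not tested.

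The labels give both groups replicate numbers 1 to 4. Deviations of same-numbered libraries correlated at -0.10 to 0.00, and none of the 4 sham or 4 BCAS libraries correlated best with its own number (0 of each). No pairing by number was found in this way. With 4 libraries per group, the check cannot exclude that same-numbered mice shared a surgery day or a batch. With the replicate number as a block, 8 receptors and 1809 genes were called, and Tlr5 (edgeR, adjusted p = 0.0740) and Tlr8 (0.0531) were not.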
